A study of Homo sapiens with 12 samples.

Results

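The genes of glycolysis and the pentose phosphate pathway, with those that carry pyruvate onward to lactate or to acetyl-CoA, were followed through RNA sequencing of 786-O cells. The set was a list of 32 gene symbols chosen by function, and all 32 were among the 17085 genes of the deposited tables and among the 12841 genes tested. It held the hexokinases, phosphofructokinases, aldolases and the enzymes of the payoff phase, lactate dehydrogenases and lactate transporters, subunits of pyruvate dehydrogenase and enzymes of the pentose phosphate pathway. 786-O is an established human renal carcinoma cell line, labelled wild type in the sample records, and all 4 groups of 3 libraries were grown in the same medium and sampled after 24 h. The control group received dimethylsulfoxide (DMSO), the everolimus group received everolimus, an inhibitor of the kinase mTOR, at 5 µM, the SGI-1027 group received SGI-1027, an inhibitor of DNA methyltransferases, at 1.5 µM, and the combination group received 5 µM everolimus with 1.5 µM SGI-1027. The sample labels give 5 µM for every everolimus library, but the protocol text gives 10 µM for everolimus alone, so the dose of that group is uncertain. The design asked how each drug, and the pair, changed expression relative to DMSO.

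Glycolysis splits glucose into pyruvate, first spending ATP in a preparatory phase and then gaining ATP and NADH in a payoff phase. Lactate dehydrogenase reduces pyruvate to lactate, which monocarboxylate transporters carry out of the cell, while the pyruvate dehydrogenase complex turns pyruvate into acetyl-CoA for the citric acid cycle. The pentose phosphate pathway branches from glucose 6-phosphate and yields NADPH and the ribose of nucleotides. Clear cell renal carcinoma is known for a strongly glycolytic metabolism. Loss of the VHL tumor suppressor, which 786-O shares, can stabilize hypoxia-inducible factors. Such factors bind motifs with the core ACGTG in many glycolytic genes. Which of them are active in 786-O, and whether they act on the genes of the set there, was not tested. Signaling by mTOR also raises the expression of glycolytic and pentose phosphate enzymes.

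The letters upstream of 3 genes of the payoff phase are shown because they differ in how often they hold that core. They are the 250 bases before the transcription start in RefSeq, build GRCh38.p14, written 5′ to 3′ on the strand of the gene, with the letters ACGTG, or CACGT where the core lies on the opposite strand, in capitals. ENO1 lies at chr1:8878687-8878936 on the minus strand, ENO2 at chr12:6914330-6914579 on the plus strand and PGK1 at chrX:78103998-78104247 on the plus strand.
ENO1: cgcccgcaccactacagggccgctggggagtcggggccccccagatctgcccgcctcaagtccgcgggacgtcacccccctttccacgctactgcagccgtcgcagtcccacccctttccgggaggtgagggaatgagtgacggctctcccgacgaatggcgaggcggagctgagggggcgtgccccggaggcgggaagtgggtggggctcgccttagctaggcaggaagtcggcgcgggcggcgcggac
ENO2: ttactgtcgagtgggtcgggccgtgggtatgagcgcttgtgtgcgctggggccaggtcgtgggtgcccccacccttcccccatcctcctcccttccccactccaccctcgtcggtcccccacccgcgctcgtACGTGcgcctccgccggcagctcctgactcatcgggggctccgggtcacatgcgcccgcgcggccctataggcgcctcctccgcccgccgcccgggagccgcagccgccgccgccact
PGK1: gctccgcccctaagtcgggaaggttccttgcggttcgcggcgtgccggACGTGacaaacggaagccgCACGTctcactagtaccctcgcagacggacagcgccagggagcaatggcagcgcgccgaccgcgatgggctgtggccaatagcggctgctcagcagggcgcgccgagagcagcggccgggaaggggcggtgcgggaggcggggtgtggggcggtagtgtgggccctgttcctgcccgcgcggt
The enolase gene ENO1 held no ACGTG on either strand in this window, the second enolase gene ENO2 held 1 and the phosphoglycerate kinase gene PGK1 held 2. Other forms of the motif were not searched. The letters gcgtg, which differ from the core in their first base, stand in the ENO1 and PGK1 windows above. The difference between the genes therefore holds only for the letters searched. RefSeq entries matched 30 of the 32 genes by symbol, with several entries for 9 of them and 55 entries in all. The core was present on either strand in 21 of those 55 entries, or 38.18%, and in 18.51% of all 35116 promoter entries of the same length. The longer letters CACGTG, which hold the core on both strands and so overlap it, were present in 7 of the 55 entries, or 12.73%, and in 6.34% of all entries. These are matches of letters, and binding was not measured.

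The 12 libraries held 37046231 to 41516976 counts. PAX8, the renal lineage factor, was at 77.6 to 119 FPKM (fragment counts scaled by gene length and library size), 10 of 11 markers of renal epithelium and carcinoma were above 1 FPKM in every library, and CA9 was the exception with at most 0.536 FPKM. All 10 markers of blood, endothelial, fibroblast, muscle and liver cells were under 2 FPKM, with the highest at 1.26 FPKM. DMSO replicate 1 and SGI-1027 replicate 3 stood apart from the other libraries of their groups: the chi-square per gene of pairs that held one of them was 10.4 to 16.5, against 3.05 to 5.54 for the other pairs. Calls against DMSO or between treated groups that changed without one or both of these libraries are given with the gene concerned. The labels do not state that replicates were separate cultures, so p-values measure the spread between these libraries, which may be technical.

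In DMSO-treated cells 3 genes of the payoff phase were the most abundant of the set. GAPDH, glyceraldehyde 3-phosphate dehydrogenase, led with 5840 ± 128 FPKM (SD, n = 3), followed by PKM, the gene of the muscle-type pyruvate kinase, with 2244 ± 17.0 FPKM and ENO1 with 1624 ± 46.2 FPKM. TPI1, triose phosphate isomerase, and LDHA, the lactate dehydrogenase subunit that favors lactate, came next at 953 and 929 FPKM, and their libraries overlapped. Of the 32 genes, 13 were above 100 FPKM, 15 lay between 10 and 100 FPKM and 4 were under 10 FPKM, namely BPGM at 4.37, TIGAR at 2.12, PFKFB2 at 1.24 and ALDOC at 0.257 FPKM. Of the 31 pairs of neighbors in this order, 11 overlapped between libraries. The 32 genes together took 3.23% ± 0.0048 (SD, n = 3) of all counts in DMSO, 2.95% ± 0.027 with everolimus, 2.72% ± 0.041 with SGI-1027 and 2.66% ± 0.026 with both drugs. No library of a treated group reached the share of the lowest DMSO library, 3.23%.

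**Figure D1:**
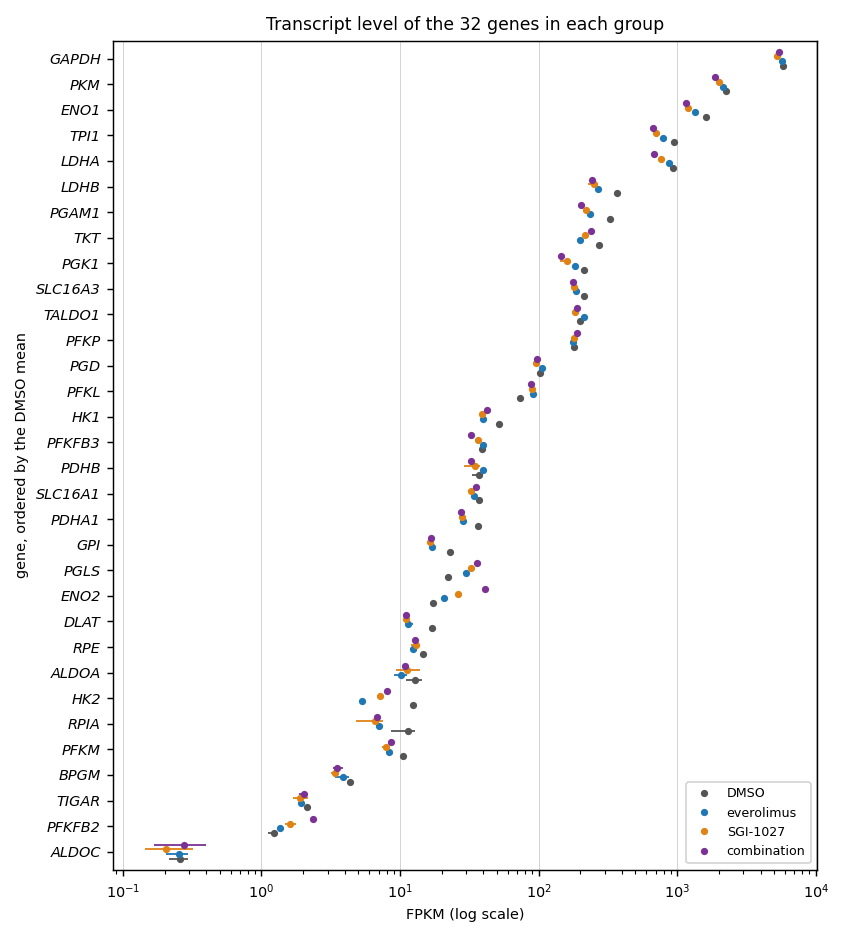
FPKM on a log scale of the 32 genes, ordered by the DMSO mean, with a point for the mean of each group and a line from its lowest to its highest library (n = 3). The levels run from 0.257 FPKM for ALDOC to 5840 FPKM for GAPDH in DMSO, and treatment moved most genes far less than the genes differ among themselves.

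Most of the set fell with each treatment. With everolimus 19 of the 32 genes were downregulated and 3 upregulated at an adjusted p under 0.05 (edgeR's quasi-likelihood test, Benjamini-Hochberg adjustment over the 12841 tested genes), while 29.2% of all tested genes were lower and 27.2% higher. With SGI-1027 22 were lower and 4 higher, beside 30.6% and 32% of all tested genes. With the combination 22 were lower and 4 higher, beside 33.4% and 32.8%. In the everolimus, SGI-1027 and combination groups the 32 genes had median log2 fold changes of -0.20, -0.27 and -0.29, and the medians of all tested genes were 0.00, 0.02 and 0.01. Counted by library instead of by test, every everolimus library lay below every DMSO library for 19 genes and above for 5, against 32.3% and 30.6% of all tested genes. The corresponding counts were 22 below and 4 above with SGI-1027 (30.7% and 32.5% of all tested genes) and 23 below and 4 above with the combination (34.7% and 34.5%). These contrasts share the DMSO libraries.

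The calls with everolimus depended on the scaling. Upper-quartile factors gave 15 lower and 6 higher genes with everolimus, beside 22.6% and 34.9% of all tested genes. Without DMSO replicate 1 and SGI-1027 replicate 3 there were 19 lower and 6 higher, beside 30.9% and 28.8%. Among the calls with everolimus over all tested genes the share of higher ones was 48.2% with the factors used here and 60.7% with upper-quartile factors, and among the 32 genes it was 13.6% and 28.6%. In bulk RNA fewer cells and less RNA per cell cannot be told apart, and all levels are relative to the total of each library.

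**Figure D2:**
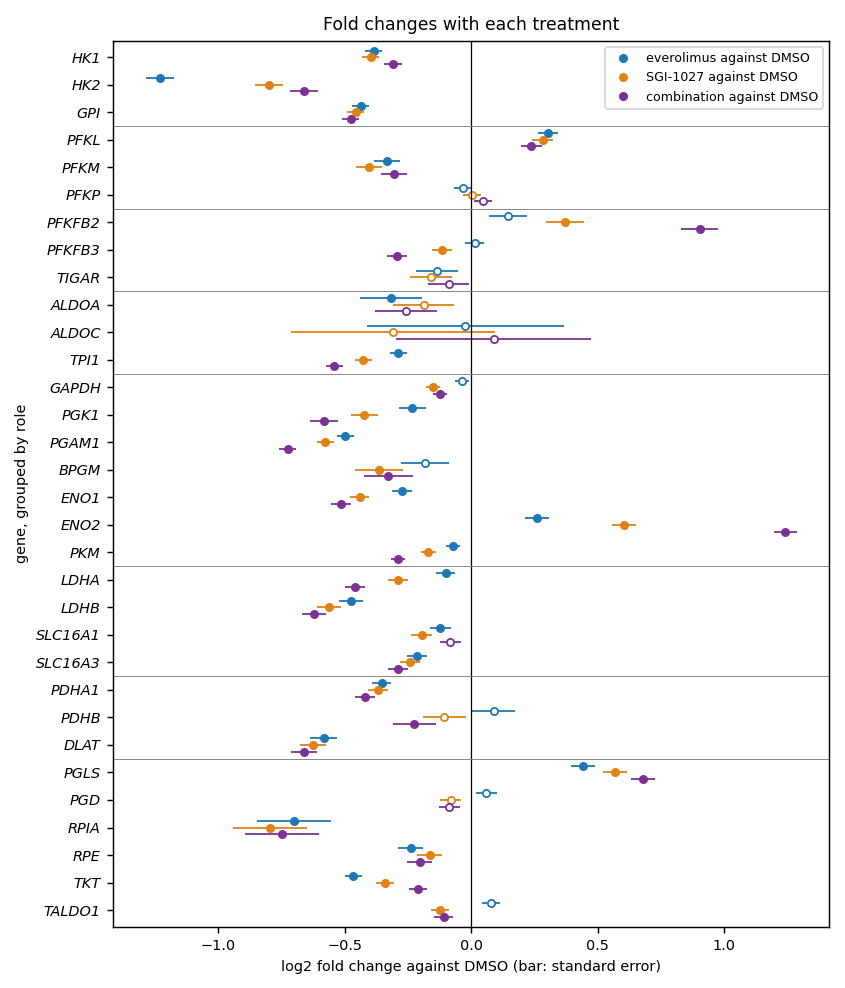
Log2 fold change against DMSO of each of the 32 genes, grouped by role, with a bar for the standard error and a filled point where the adjusted p was under 0.05. Most points lie left of 0. HK2 reached -1.23 with everolimus and ENO2 reached 1.24 with the combination.

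Few changes were large. Under the stated cut-off for differentially expressed genes (DEGs), an unadjusted p under 0.05 and a change of 1 or more on the log2 scale in either direction, HK2 was 1 gene of the 32 past it with everolimus, where 4.79% of all tested genes were. ENO2 was 1 gene past it with the combination, where 9.96% of all tested genes were. With SGI-1027 0 of the 32 genes were past the cut-off in edgeR, where 7.33% of all tested genes were. DESeq2 also put 0 of the 32 past it, and its share of all tested genes was not counted. At an adjusted p under 0.05 in edgeR 22 of the 32 were lower and 4 higher with SGI-1027, beside 30.6% and 32% of all tested genes.

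HK1 and HK2, hexokinases that trap glucose in the cell as glucose 6-phosphate, and the isomerase that follows them fell. HKDC1, a further hexokinase outside the set with 19.4 FPKM in DMSO, had log2 fold changes of -0.06, 0.11 and -0.08 that missed the threshold (adjusted p = 0.299, 0.0603 and 0.155). HK2, the inducible hexokinase, had normalized CPM (counts scaled by library size) of 68.7, 74.9 and 74.9 in DMSO, 29.8, 30.9 and 32.3 with everolimus, 44.3, 41.1 and 40.1 with SGI-1027 and 45.5, 44.5 and 48.2 with the combination. All treated libraries lay below all DMSO libraries, and the everolimus libraries were the lowest. HK2 fell to 0.426-fold with everolimus (log2 fold change -1.23 ± 0.056 SE, adjusted p = 8.13e-12), to 0.575-fold with SGI-1027 (adjusted p = 6.63e-10) and to 0.632-fold with the combination (adjusted p = 5.62e-09). Against everolimus alone the combination was 1.48-fold higher (adjusted p = 2.27e-07), and against SGI-1027 alone the log2 difference was 0.14 with a 95% interval from 0.02 to 0.25 (adjusted p = 0.0915). HK1, the constitutive hexokinase, fell in the 3 treated groups, with log2 fold changes of -0.39, -0.40 and -0.31. Without DMSO replicate 1 the combination was called higher in HK1 than everolimus (0.083, adjusted p = 0.0447) and SGI-1027 (0.091, adjusted p = 0.0484) alone. As a share of the FPKM of HK1, HK2 and HKDC1, HK2 made up 15.0% ± 0.47 in DMSO, 8.42% ± 0.31 with everolimus, 10.7% ± 0.29 with SGI-1027 and 11.7% ± 0.57 with both drugs (SD, n = 3). GPI, glucose 6-phosphate isomerase, fell by 0.44, 0.46 and 0.48 on the log2 scale, and the combination differed from neither drug alone at the threshold (intervals of the log2 difference from -0.11 to 0.03 against everolimus and from -0.09 to 0.05 against SGI-1027).

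The 3 phosphofructokinase subunits, which catalyze the committed step, split. PFKL, the liver-type subunit, rose, with 309, 296 and 289 CPM in DMSO, 373, 353 and 376 with everolimus, 347, 367 and 373 with SGI-1027 and 349.8, 341 and 363 with the combination. Every treated library was above every DMSO library. The log2 fold changes were 0.30 ± 0.041, 0.28 ± 0.041 and 0.24 ± 0.041 SE, with adjusted p-values of 5.75e-06, 9.83e-06 and 5.69e-05. PFKM, the muscle-type subunit, fell by 0.33, 0.40 and 0.31 on the log2 scale, and PFKP, the platelet-type subunit and the most abundant of the 3 at 180 FPKM, had log2 fold changes of -0.03, 0.00 and 0.05 that missed the threshold. Under upper-quartile factors PFKP was called higher with the combination (0.10, adjusted p = 0.0148), and without DMSO replicate 1 and SGI-1027 replicate 3 higher in the combination than with everolimus (0.076, adjusted p = 0.0143). PFKL made up 27.8% ± 0.39 of the FPKM of the 3 subunits in DMSO, 32.9% ± 0.27 with everolimus, 32.2% ± 0.37 with SGI-1027 and 30.8% ± 0.70 with both drugs.

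Fructose 2,6-bisphosphate, the strongest allosteric activator of phosphofructokinase, is both made and removed by the PFKFB enzymes, and TIGAR can remove it too. PFKFB2 had 15.2, 13.2 and 15.2 CPM in DMSO, 15.8, 16.0 and 16.3 with everolimus, 20.6, 18.3 and 17.4 with SGI-1027 and 26.5, 27.0 and 27.9 with the combination. The combination libraries stood above all others. PFKFB2 was 1.87-fold higher with the combination than with DMSO (log2 fold change 0.90 ± 0.073 SE, adjusted p = 4.21e-09), 1.69-fold higher than with everolimus and 1.45-fold higher than with SGI-1027. With everolimus alone the log2 fold change of 0.15 missed the threshold (adjusted p = 0.104), although its libraries did not overlap with DMSO, and under upper-quartile factors it was called (0.22, adjusted p = 0.0184). Without DMSO replicate 1 and SGI-1027 replicate 3 the value of PFKFB2 with everolimus was 0.18, just past the threshold (adjusted p = 0.05 after rounding). PFKFB3, with a far stronger kinase than phosphatase activity, moved the other way, with log2 fold changes of 0.01 (adjusted p = 0.787) with everolimus, -0.12 (adjusted p = 0.015) with SGI-1027 and -0.29 (adjusted p = 2.56e-06) with the combination. The fall of PFKFB3 with SGI-1027 was -0.061 with an adjusted p of 0.182 under upper-quartile factors. TIGAR had log2 fold changes of -0.13, -0.16 and -0.09, none past the threshold with all libraries, but without SGI-1027 replicate 2 its value with SGI-1027 was -0.26 (adjusted p = 0.0103). The exons of TIGAR share 42.6% of their bases on the same strand with another annotated gene, so its counts are uncertain.

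**Figure D3:**
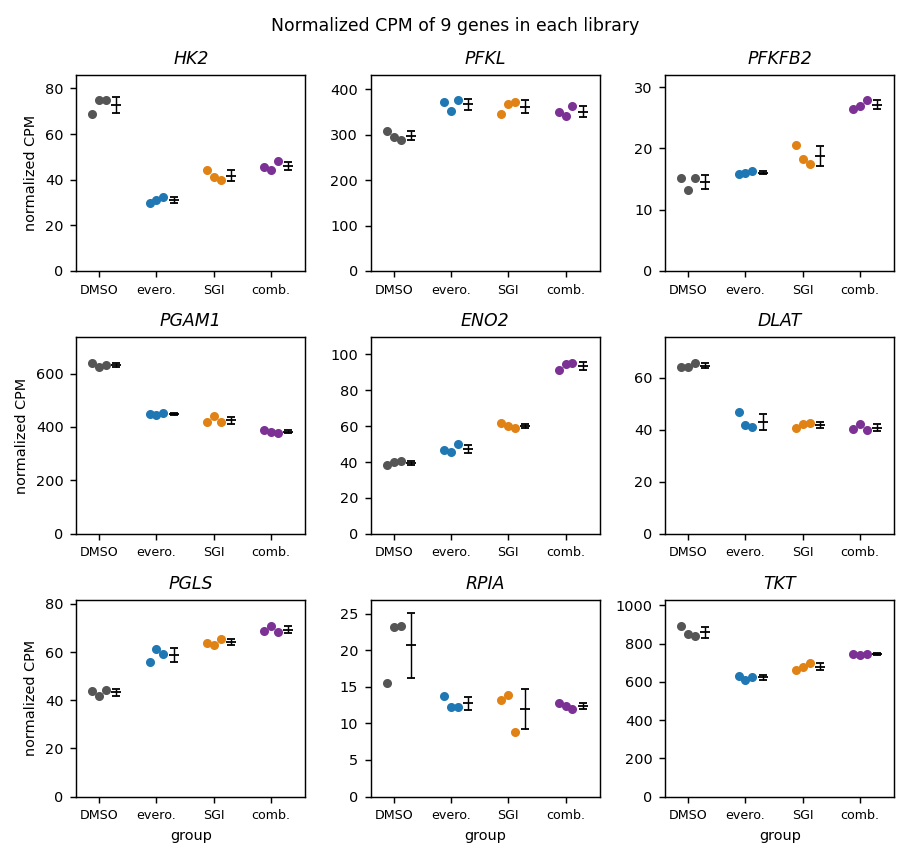
Normalized CPM of 9 genes in the DMSO, everolimus (evero.), SGI-1027 (SGI) and combination (comb.) groups, with a point per library and, at the right of each group, the mean and SD (n = 3). HK2 and TKT were lowest with everolimus, ENO2 and PFKFB2 highest with the combination, and RPIA differed most among libraries of one group.

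TPI1, which interconverts the triose phosphates, fell by 0.29, 0.43 and 0.54 on the log2 scale with everolimus, SGI-1027 and the combination, and the combination was lower than everolimus (adjusted p = 9.74e-06) and SGI-1027 (adjusted p = 0.0238) alone. The difference from SGI-1027 lost its call in limma-trend (adjusted p = 0.0866 on log2(FPKM + 1)) and had an adjusted p of 0.118 without SGI-1027 replicate 2. ALDOA was at only 12.7 FPKM in DMSO and shares 42.3% of its exon bases on the same strand with another annotated gene, AC093512.2, so its counts are uncertain. Its fall with everolimus (log2 fold change -0.32 ± 0.12 SE, adjusted p = 0.0346) had an adjusted p of 0.136 without DMSO replicate 1, and its value of -0.19 with SGI-1027 became -0.39 (adjusted p = 0.00109) without SGI-1027 replicate 3. Without that library the value of ALDOA with the combination, -0.26, was called (adjusted p = 0.00917), as was its interaction (0.45, adjusted p = 0.00533). ALDOC had 9 to 25 counts per library, and at this depth no change was detectable, with a 95% interval of the log2 fold change from -0.72 to 0.90 for the combination.

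Of 7 genes grouped with the payoff phase, BPGM among them, 6 were lower with SGI-1027 and with both drugs, and 1, ENO2, was higher. Over all tested genes 30.6% and 33.4% were lower and 32% and 32.8% higher. PGAM1, phosphoglycerate mutase, had 639.6, 626 and 631 CPM in DMSO, 448, 444 and 452 with everolimus, 417, 439 and 417 with SGI-1027 and 389, 381 and 377 with the combination. Every treated library was below DMSO, and the combination libraries were the lowest. Its log2 fold changes were -0.50 ± 0.033, -0.58 ± 0.033 and -0.73 ± 0.034 SE, with adjusted p-values of 9.09e-10, 7.31e-11 and 1.96e-12, and the combination was lower than everolimus by 0.23 and lower than SGI-1027 by 0.15 on the log2 scale (adjusted p = 2.5e-05 and 0.00361). PGAM1 has 13 named pseudogenes in GENCODE 29 and GAPDH has 62, among 111 for 15 of the 32 genes. LDHA and RPE have 6 each, PKM 5, and TPI1 and ENO1 4 each. Counts of such genes are uncertain where reads match a copy. Exons of 17 of the 32 genes also overlap those of a gene on the opposite strand, and the strand setting of the counting is not known.

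The 2 enolases, which form phosphoenolpyruvate, moved in opposite directions. ENO2, the neuron-type enolase, had 38.5, 39.7 and 40.5 CPM in DMSO, 46.7, 45.8 and 49.8 with everolimus, 61.5, 60.0 and 59.0 with SGI-1027 and 91.1, 94.6 and 95.2 with the combination. The 4 groups did not overlap. ENO2 rose 1.20-fold with everolimus (log2 fold change 0.26 ± 0.047 SE, adjusted p = 0.000131), 1.52-fold with SGI-1027 (0.60 ± 0.046, adjusted p = 3.29e-09) and 2.37-fold with the combination (1.24 ± 0.046, adjusted p = 9.96e-14). ENO1 fell by 0.27, 0.44 and 0.51 on the log2 scale. The combination was lower in ENO1 than everolimus alone (adjusted p = 5.36e-05), while its difference of -0.07 from SGI-1027 alone had an interval from -0.15 to 0.01 (adjusted p = 0.192). Without SGI-1027 replicate 3 that difference in ENO1 was -0.11 (adjusted p = 0.0282). ENO1 stayed the main enolase: ENO2 made up 1.05% ± 0.012 of the FPKM of both in DMSO, 1.51% ± 0.059 with everolimus, 2.14% ± 0.073 with SGI-1027 and 3.45% ± 0.15 with both drugs.

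PGK1, which forms the first ATP of the payoff phase, fell by 0.23 with everolimus, 0.42 with SGI-1027 and 0.58 with both drugs on the log2 scale. Its CPM were 963, 1044 and 1095 in DMSO and 691, 685 and 696 with the combination, which did not overlap. The difference between the combination and SGI-1027 alone was at the threshold (log2 difference -0.16, adjusted p = 0.0461) and had an adjusted p of 0.191 without SGI-1027 replicate 2 and 0.053 in DESeq2. PKM fell by 0.17 with SGI-1027 and 0.29 with both drugs, and its value of -0.07 with everolimus (adjusted p = 0.0426) was 0.0021 (adjusted p = 0.953) under upper-quartile factors. The PKM call with everolimus was also lost in limma-trend on log2(FPKM + 1) (adjusted p = 0.128) and without everolimus replicate 2 (adjusted p = 0.136), among other libraries. GAPDH, often used as a reference gene, had a log2 fold change of -0.04 with everolimus (adjusted p = 0.297), -0.15 with SGI-1027 (adjusted p = 0.000177) and -0.12 with the combination (adjusted p = 0.00101, but 0.051 in limma-trend on log2(FPKM + 1)). BPGM, which makes 2,3-bisphosphoglycerate, fell by 0.36 with SGI-1027 and 0.33 with both drugs.

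**Figure D4:**
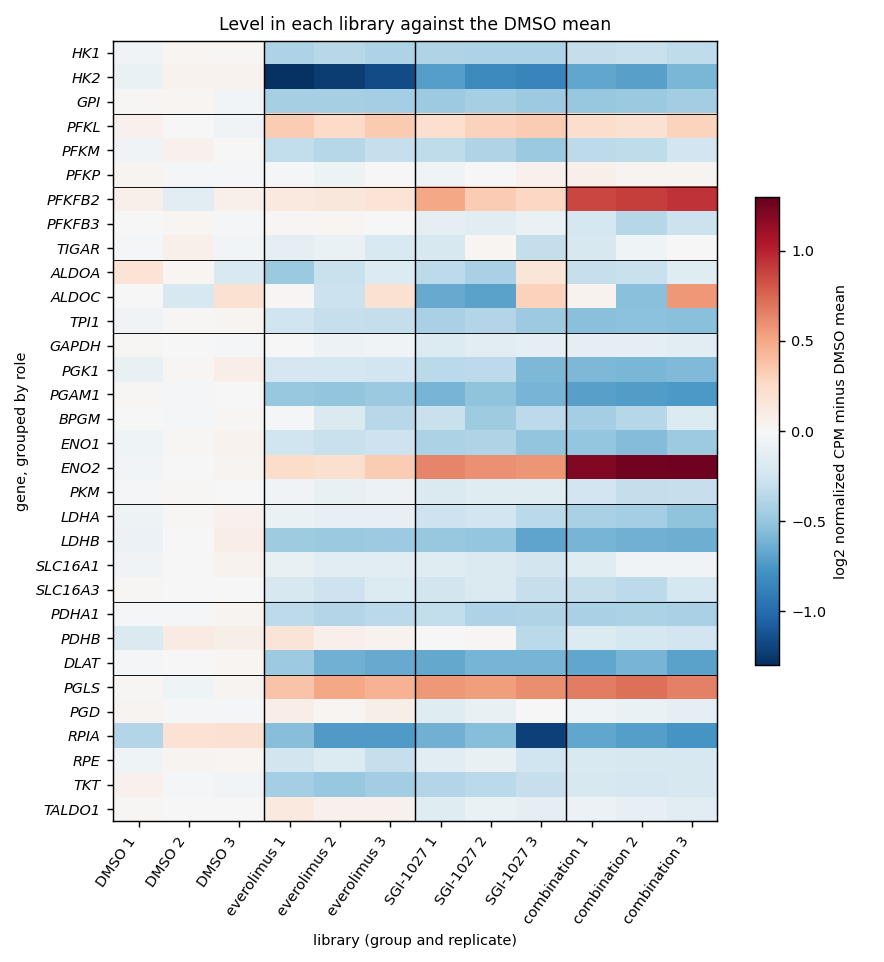
Log2 normalized CPM minus the DMSO mean in each of the 12 libraries, for the 32 genes grouped by role (thin lines) and the libraries grouped by treatment (thick lines); blue is lower and red higher than the DMSO mean. Most rows are blue in the 9 treated libraries, with ENO2, PFKFB2, PGLS and PFKL red, and RPIA and ALDOC differ within groups.

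Genes of lactate formation and export fell as well. LDHA had 2223, 2355 and 2422 CPM in DMSO, 2193, 2173 and 2160 with everolimus, 1936, 1968 and 1823 with SGI-1027 and 1747, 1713 and 1626 with the combination. The 4 groups did not overlap in LDHA and stood in that order. LDHA fell by 0.29 with SGI-1027 (adjusted p = 4.32e-06) and 0.46 with the combination (adjusted p = 8.96e-09), while the value of -0.10 with everolimus (adjusted p = 0.0353) was -0.027 (adjusted p = 0.578) under upper-quartile factors. The LDHA call with everolimus was also lost without any one of the everolimus libraries and without DMSO replicate 2 (adjusted p = 0.0975) or 3 (adjusted p = 0.168). In limma-trend on log2(FPKM + 1) its adjusted p was 0.0799. LDHB, the subunit that favors pyruvate, fell by 0.47, 0.56 and 0.62 on the log2 scale, with 33.4% of its exon bases shared on the same strand with another annotated gene. Without SGI-1027 replicate 3 LDHB was called lower in the combination than with SGI-1027 (-0.12, adjusted p = 0.0399). LDHB made up 28.5% ± 0.44 of the FPKM of both subunits in DMSO and 23.6% ± 0.14 with everolimus, 24.8% ± 0.67 with SGI-1027 and 26.3% ± 0.56 with both drugs. SLC16A3 (MCT4), the main lactate exporter of glycolytic cells, fell by 0.21, 0.24 and 0.29 on the log2 scale. SLC16A1 (MCT1), which carries lactate in both directions, fell by 0.12 with everolimus and 0.20 with SGI-1027, and its value of -0.08 with the combination missed the threshold (adjusted p = 0.0862) but not without DMSO replicate 1 and SGI-1027 replicate 3 (-0.10, adjusted p = 0.0112). Without DMSO replicate 1 SLC16A1 was called higher in the combination than with SGI-1027 (0.12, adjusted p = 0.0422), and without both libraries SLC16A3 was called lower than with everolimus (-0.076, adjusted p = 0.0303). The fall of SLC16A1 with everolimus had an adjusted p of 0.335 under upper-quartile factors and of 0.0839 without DMSO replicate 3.

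Among the subunits of pyruvate dehydrogenase, DLAT, the acetyltransferase core, fell the most. It had 64.1, 64.2 and 65.8 CPM in DMSO, 46.8, 41.9 and 40.9 with everolimus, 40.8, 42.4 and 42.6 with SGI-1027 and 40.4, 42.4 and 40.0 with the combination. All treated libraries were below DMSO, and the 3 treated groups overlapped with each other. Its log2 fold changes were -0.58, -0.63 and -0.66, each with an SE of 0.052 and an adjusted p of at most 3.47e-08. PDHA1, the catalytic alpha subunit, fell by 0.35, 0.37 and 0.42. PDHB, the beta subunit, had log2 fold changes of 0.09 (adjusted p = 0.387) with everolimus, -0.11 (adjusted p = 0.286) with SGI-1027 and -0.23 (adjusted p = 0.0265) with the combination, and the last had an adjusted p of 0.138 without DMSO replicate 2 and 0.0932 under upper-quartile factors. With SGI-1027 the value of PDHB was -0.19 (adjusted p = 0.0423) without DMSO replicate 1 and 0.0046 (adjusted p = 0.956) without SGI-1027 replicate 3. Without the latter library PDHB was called lower in the combination than with SGI-1027 (-0.23, adjusted p = 0.0152), and its interaction was called (-0.32, adjusted p = 0.00491).

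The pentose phosphate genes went in several directions. PGLS, 6-phosphogluconolactonase of the oxidative branch, rose, with 43.7, 41.7 and 44.3 CPM in DMSO, 55.7, 61.4 and 59.1 with everolimus, 63.9, 63.0 and 65.5 with SGI-1027 and 68.7, 70.9 and 68.2 with the combination. The 4 groups did not overlap. PGLS was 1.36-fold, 1.48-fold and 1.60-fold higher (log2 fold changes 0.44, 0.57 and 0.68, each ± 0.047 SE), with adjusted p-values of 3.25e-07, 8.66e-09 and 5.33e-10. Without DMSO replicate 1 and SGI-1027 replicate 3 PGLS was called higher in the combination than with SGI-1027 (0.13, adjusted p = 0.0398). PGD, the next enzyme of that branch and the second to make NADPH, had log2 fold changes of 0.06, -0.08 and -0.09, which missed the threshold with adjusted p-values of 0.232, 0.103 and 0.0785. Under upper-quartile factors PGD was called higher with everolimus (log2 fold change 0.13, adjusted p = 0.00881), as it was without DMSO replicate 1 and SGI-1027 replicate 3 (0.078, adjusted p = 0.0394). Without SGI-1027 replicate 3 PGD was called lower with SGI-1027 (-0.13, adjusted p = 0.00752) and with the combination (-0.086, adjusted p = 0.0319).

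In the non-oxidative branch TKT, transketolase, had 893, 848 and 838 CPM in DMSO, 631, 609.8 and 628 with everolimus, 662, 676 and 700.2 with SGI-1027 and 746, 738 and 746 with the combination. As in HK2, the everolimus libraries were the lowest and the combination libraries the nearest to DMSO. TKT fell by 0.47 ± 0.035, 0.34 ± 0.035 and 0.21 ± 0.035 on the log2 scale, with adjusted p-values of 3.88e-09, 1.46e-07 and 3.83e-05, and the combination was higher than everolimus (log2 difference 0.26, adjusted p = 1.15e-05) and SGI-1027 (0.13, adjusted p = 0.0128) alone. RPIA, ribose 5-phosphate isomerase, had 15.6, 23.2 and 23.4 CPM in DMSO, 13.8, 12.2 and 12.2 with everolimus, 13.2, 13.8 and 8.77 with SGI-1027 and 12.7, 12.3 and 11.9 with the combination. The low DMSO value and the lowest value of all came from DMSO replicate 1 and SGI-1027 replicate 3, the libraries that stood apart. RPIA fell by 0.70 ± 0.15, 0.80 ± 0.15 and 0.75 ± 0.15 on the log2 scale (adjusted p = 0.000499, 0.000128 and 0.000199). Leaving out DMSO replicate 1 moved its value with everolimus to -0.87, and leaving out SGI-1027 replicate 3 moved its value with SGI-1027 to -0.62. RPE, the epimerase, fell by 0.24, 0.16 and 0.20, and its value with SGI-1027 had an adjusted p of 0.0718 under upper-quartile factors. TALDO1, transaldolase, fell by 0.12 with SGI-1027 and 0.11 with both drugs, while its value of 0.08 with everolimus had an adjusted p of 0.0743 and was called without DMSO replicate 1 and SGI-1027 replicate 3 (0.085, adjusted p = 0.0299). With upper-quartile factors TALDO1 was called higher with everolimus (0.15, adjusted p = 0.0016) and no longer lower with SGI-1027 (adjusted p = 0.111) or the combination (adjusted p = 0.212).

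The combination was also set directly against each drug. Against everolimus 12 of the 32 genes were lower and 5 higher, where 19.2% and 20.1% of all tested genes were. The higher ones were ENO2, PFKFB2, HK2, TKT and PGLS, with log2 differences of 0.98, 0.76, 0.57, 0.26 and 0.24, and the lowest was LDHA with -0.36 (adjusted p = 7.53e-07). Against SGI-1027 6 were lower and 3 higher, where 10.2% and 9.4% of all tested genes were. ENO2, PFKFB2 and TKT were higher, by 0.64, 0.53 and 0.13, and PFKFB3, LDHA, PGK1, PGAM1, PKM and TPI1 were lower, by at most 0.18. Scaling by library totals alone gave 5 lower and 5 higher genes against SGI-1027, beside 8.57% and 11.5% of all tested genes. The limma-trend fit on log2(FPKM + 1) gave 3 and 6, beside 8.11% and 11.4%. Leaving out DMSO replicate 1 and SGI-1027 replicate 3 gave 9 and 5, beside 12.8% and 12.7%. If everolimus alone was given at the higher dose of the protocol text, dose and the addition of SGI-1027 cannot be told apart in the comparison with everolimus.

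The interaction contrast asked whether everolimus had the same effect on a gene with SGI-1027 as without it. The value is the log2 change from SGI-1027 to the combination minus the log2 change from DMSO to everolimus, so that 0 means that the effects of the drugs add up on the log2 scale. It was above 0 at an adjusted p under 0.05 for 17 of the 32 genes and below 0 for 3, where 23.6% and 22.1% of all tested genes were, and its median was 0.21 over the 32 genes and -0.01 over all tested genes. Upper-quartile factors gave 13 above and 6 below 0, so that the share above 0 among called genes went from 85% to 68.4% in the set and from 51.7% to 39.5% over all tested genes. HK2 had the highest value, 1.37 ± 0.079 SE (adjusted p = 4.8e-10), followed by RPIA with 0.75 ± 0.21 (adjusted p = 0.00736), TKT with 0.60 ± 0.049 (adjusted p = 3.68e-08) and DLAT with 0.55 ± 0.074 (adjusted p = 1.09e-05). In HK2 and TKT the combination was higher than everolimus alone, whereas in RPIA and DLAT it differed from either drug alone by at most 0.08 on the log2 scale. For ENO2 and PFKFB2 the rise with both drugs was larger than the sum of the single rises, by 0.38 ± 0.065 and 0.39 ± 0.10. PFKL and PGLS rose less with both drugs than that sum, by a log2 value of -0.35 ± 0.058 and -0.33 ± 0.066, and PFKFB3 had -0.19 ± 0.055. The interactions of LDHA, PGK1, PKM and GAPDH missed the threshold (values of -0.07, 0.07, -0.05 and 0.06, adjusted p-values of 0.318, 0.472, 0.371 and 0.214), but under upper-quartile factors those of LDHA (-0.14, adjusted p = 0.0433), PKM (-0.12, adjusted p = 0.022) and TALDO1 (-0.14, adjusted p = 0.0369) were called. A higher dose in the everolimus group than in the combination group would enter this contrast too.

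**Figure D5:**
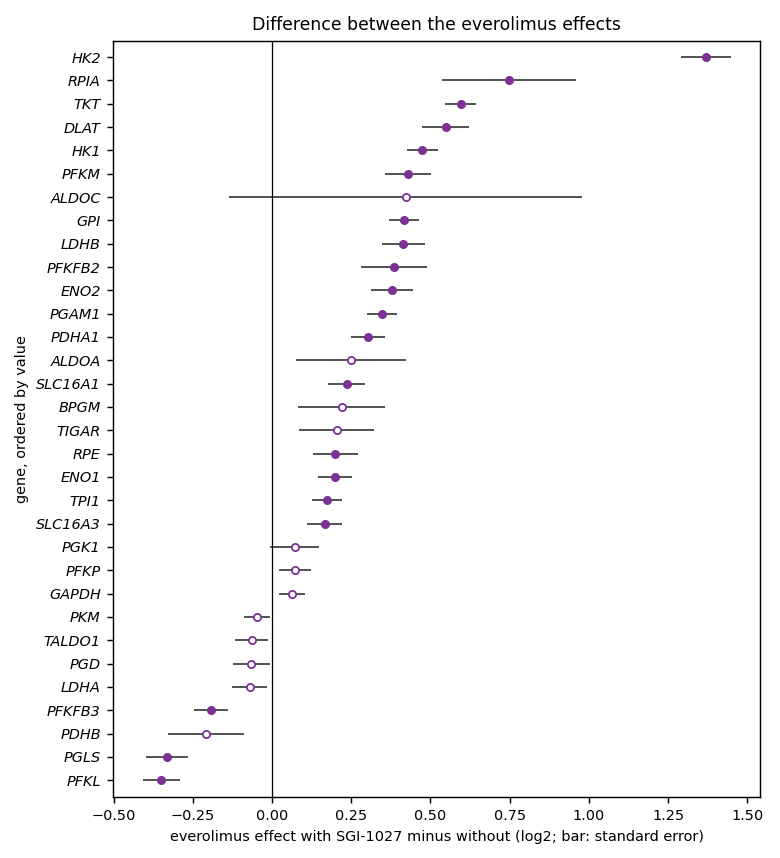
The everolimus effect in the presence of SGI-1027 minus the effect in its absence, on the log2 scale, for each of the 32 genes ordered by value, with a bar for the standard error and a filled point where the adjusted p was under 0.05. The 17 filled points right of 0 reach 1.37 for HK2, and the 3 left of 0 are PFKL, PGLS and PFKFB3.

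Genes next to these pathways were counted from further lists, to be read against the shares of all tested genes: 29.2%, 30.6% and 33.4% were lower and 27.2%, 32% and 32.8% higher with everolimus, SGI-1027 and the combination. Of 17 citric acid cycle genes 11 were lower with everolimus, 14 with SGI-1027 and 14 with both drugs, with medians of -0.25, -0.36 and -0.36, and IDH3A, a subunit of the NAD-dependent isocitrate dehydrogenase, was lowest with the combination at -0.77. SDHA, at -0.10, was the called gene nearest to 0. Among 10 tested hexose transporters 4, 6 and 6 were higher and 2 were lower in each contrast. SLC2A5, the fructose transporter, rose by 1.70 with the combination from 0.176 FPKM in DMSO, and SLC2A8 fell by 0.45. Of 8 tested further isoenzymes of glycolysis 2 were higher in each contrast and 1, 1 and 2 lower, with ENO3, the muscle-type enolase, 1.67 higher with the combination and LDHC, a testis-type subunit with at most 47 counts in a library, 0.84 lower on the log2 scale. The 3 tested genes of gluconeogenesis held PCK2, mitochondrial phosphoenolpyruvate carboxykinase, which rose by 1.40 with the combination, and PC, pyruvate carboxylase, which fell by 0.96.

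Of 11 further genes around pyruvate dehydrogenase and the mitochondrial pyruvate carrier 4, 3 and 3 were higher and 5, 6 and 4 lower with everolimus, SGI-1027 and the combination. PDP1, the phosphatase that activates the complex, rose by 1.21 with the combination, and MPC2, a subunit of the carrier, fell by 0.90. Among 8 tested further genes of the pentose phosphate pathway and ribose use 2, 3 and 1 were higher and 2, 2 and 1 lower. H6PD, which starts the oxidative branch in the endoplasmic reticulum, rose by 1.04 with everolimus, 1.09 with SGI-1027 and 1.04 with both drugs, and PRPS1, which makes phosphoribosyl pyrophosphate, fell by 0.41, 0.60 and 0.55. Of 10 tested genes of glycogen metabolism 8, 6 and 8 were lower and 1 higher in each contrast. Over all tested genes 29.2%, 30.6% and 33.4% were lower and 27.2%, 32% and 32.8% higher. With the combination GBE1, the branching enzyme, was at -0.81 and PYGB, the brain-type phosphorylase, at 0.15. BSG, the chaperone of the lactate transporters, rose by 0.30, 0.29 and 0.32.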

How the data were processed

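RNA sequencing of 786-O cells in 4 groups of 3 libraries was used. The authors deposited raw counts per gene symbol, and FPKM values of the same genes and libraries. The aligner, counting program, annotation and strand setting are not given in the sources used here, and the submitters' processing notes name GRCm38 and mm10, which are mouse builds, for these human samples. The paper describes TRIzol extraction and a stranded mRNA kit, whereas the sample records name RNeasy and SMARTer kits.

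The test was edgeR 4.0.16's quasi-likelihood test in R 4.3.3. The filterByExpr function kept 12841 of 17085 genes and dropped 4244. TMM factors (0.99 to 1.01) scaled the libraries, and all 12 entered one quasi-likelihood fit (prior count 0.125). A call had a Benjamini-Hochberg adjusted p under 0.05. CPM were normalized with the TMM factors, and the deposited FPKM served for levels. At 37046231 to 41516976 counts per library, precision rested mainly on the spread between libraries of a group, pooled over the 4 groups of 3.

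Per-library values are given for genes among the 3 highest or 3 lowest called log2 fold changes of a contrast with DMSO, or the 3 largest interactions, and for PGK1 and LDHA, which were added after their values were seen. From each further list the called genes with the highest and lowest value in the combination were named. The members and lists were chosen with earlier results of these data known. The procedure was tested on simulated data. Alternatives were other scalings and filters, a replicate block, DESeq2 1.42.0, limma-trend (limma 3.58.1) on log2(FPKM + 1) and log2(FPKM + 0.1), fits of the compared groups alone and leaving out libraries. Overlapping genes and pseudogenes came from GENCODE 29. Not every gene of the further lists is reported here.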

Additional observations from a re-analysis of the deposited data

Results flagged for a closer look

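In 20 of the 32 genes the effect of everolimus differed between cells with and without SGI-1027, by the interaction term of the edgeR fit at a Benjamini-Hochberg adjusted p under 0.05 (23.6% of all tested genes passed it above 0 and 22.1% below). The values below are the effect with SGI-1027 minus the effect without it, on the log2 scale. Among the hexokinases and the isomerase they were 0.47 for HK1, 1.37 for HK2 and 0.42 for GPI. Of the phosphofructokinases PFKM had 0.43 and PFKL -0.35, and of the PFKFB genes PFKFB2 had 0.39 and PFKFB3 -0.19. The enzymes of the 3-carbon steps gave 0.17 for TPI1, 0.35 for PGAM1, 0.20 for ENO1 and 0.38 for ENO2. For lactate and its transport the values were 0.41 for LDHB, 0.24 for SLC16A1 and 0.17 for SLC16A3. Pyruvate dehydrogenase gave 0.30 for PDHA1 and 0.55 for DLAT. The pentose phosphate genes had -0.33 for PGLS, 0.75 for RPIA, 0.20 for RPE and 0.60 for TKT. Under upper-quartile factors the calls of RPE (0.13, adjusted p = 0.167), ENO1 (0.13, adjusted p = 0.0679), TPI1 (0.10, adjusted p = 0.101) and SLC16A3 (0.093, adjusted p = 0.198) were lost, and that of RPE was also lost without SGI-1027 replicate 3 (0.15, adjusted p = 0.0608) and in other fits that left out 1 library. Where the value is above 0 and the gene fell with each drug, the fall with both was smaller than the sum of the single falls. Groups of 3 libraries are too small for a test of single outlying libraries. The uncertain dose of the everolimus group bears on all of these values.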

How the results depend on the processing

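Over 4186 combinations of gene, contrast and alternative, 4016 kept their side of the threshold, 103 lost the call, 66 gained one and 1 reversed. The last was PKM with everolimus under upper-quartile factors (0.0021 in place of -0.07 on the log2 scale, adjusted p = 0.953). Directions were compared only for genes called in the main or the alternative fit. Values called in neither could change sign, as that of PDHB with SGI-1027 did without SGI-1027 replicate 3 (0.0046). Upper-quartile factors moved the median of all tested genes by 0.074 with everolimus, 0.055 with SGI-1027 and 0.056 with both drugs, which by construction moved the members as well. The members' medians became -0.12, -0.21 and -0.23. Members higher with everolimus went from 3 to 6, beside 27.2% and 34.9% of all tested genes. Members with an interaction below 0 went from 3 to 6, beside 22.1% and 27.9%. The median with SGI-1027, -0.27, was -0.29 with no filter on low counts, -0.23 with at least 10 counts in every library, where ALDOC dropped out, and -0.22 in limma-trend on log2(FPKM + 1). The genes higher in the combination than with SGI-1027 numbered 3 with the factors used here and 5 with library totals alone. They numbered 5 in DESeq2 and 6 in limma-trend with either pseudocount (1 or 0.1 FPKM). Over all tested genes 9.4% were higher with the factors used here, and 11.5%, 10.8%, 11.4% and 10.9% in those fits. Genes of the set called lower numbered 3 in both limma-trend fits in place of 6. Over all tested genes 8.11% and 8.04% were lower there, in place of 10.2%. The cause was not tested.

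Without DMSO replicate 1 and SGI-1027 replicate 3, an alternative added after seeing the data, 6 genes were higher with everolimus, beside 28.8% of all tested genes. In that fit the median with SGI-1027 was -0.30, and 5 genes were higher in the combination than with SGI-1027, beside 12.7%. Leaving out each library in turn gave medians from -0.23 to -0.18 with everolimus, from -0.30 to -0.23 with SGI-1027 and from -0.30 to -0.26 with the combination. In these fits 15 to 19 members were lower with everolimus, 21 to 24 with SGI-1027 and 20 to 24 with the combination. Over all tested genes 26.4% to 30.5%, 27.8% to 30.2% and 30.3% to 34.4% were lower. Against SGI-1027 the combination had 3 to 5 members higher, with 5 without DMSO replicate 1, beside 6.79% to 11.1% of all tested genes. It had 3 to 9 lower, with 3 without combination replicate 2 and 9 without SGI-1027 replicate 3, beside 7.08% to 10.9%. The limits are the spread between libraries within the groups of 3, pooled over all groups, which left the 95% intervals of ALDOC, ALDOA and RPIA wide, and the low count of ALDOC. Libraries with the same replicate number did not deviate together (correlations from -0.18 to 0.036 over 18 pairs, 0 of them over 0.1), so the numbers were not taken to pair libraries. With a replicate block the everolimus contrast had 3 higher and 18 lower members, beside 26.6% and 28.5% of all tested genes, and the median was -0.20. The calls of PKM with everolimus (adjusted p = 0.0612) and of PGK1 in the combination against SGI-1027 (adjusted p = 0.0713) were lost, and no other member's call changed.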
